A study of Mus musculus with 12 samples.

Results

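In livers that made a human alpha1-antitrypsin, the change in gene expression that came with the mutant Z protein was set against the change that came with the wild-type M protein. The quantity measured was a difference of responses: Z on minus Z off, from which M on minus M off was subtracted, on the log2 scale. A positive value means that a gene went up more, or went down less, in Z mice than in M mice. Probe sets, the groups of probes that report 1 transcript each, were included when they were no array control and their mean signal over the 12 arrays was 100 or more, with no use of the group labels. That left 7083 of 22690 probe sets, 31.3% of the 22626 that are not controls. Just outside that limit lay Ptrhd1 (mean signal 99.99) and Clec16a (99.95). Just inside it lay Dmtf1 and Nr1d1 (both 100.1). Of the 7083, 6457 carried 1 gene symbol and stood for 4689 genes.

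The mice were males, 6 weeks of age, with a human alpha1-antitrypsin gene whose inducible expression is limited to hepatocytes. The M off and Z off mice drank doxycycline at 40 µg/mL from conception until they were killed, and the M on and Z on mice had none. M mice carry the wild-type human form and Z mice the Z mutant. Total liver RNA was hybridised to 1 one-colour Affymetrix array per mouse, with 3 arrays in each of the 4 groups, described by the submitters as biological replicates. An effect of doxycycline that is the same in both lines cancels in the difference of responses. The form of the protein and the mouse line that carries it cannot be told apart, nor can a doxycycline effect that differs between the lines. The human transcript has no probe set named for it here, so the state of the transgene was not checked on the arrays. The mouse counterpart Serpina1c read between 17739.5 and 24722.3 on all 12 arrays, and the summed signal of 8 hepatocyte markers lay between 83872.5 and 137739. The number of arrays limits the precision. The standard error of a difference of responses had a median of 0.26 over the tested probe sets.

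Alpha1-antitrypsin is a protease inhibitor that hepatocytes make and secrete in large amounts. The Z form folds poorly and polymerises in the endoplasmic reticulum (ER), where much of it is retained and is then removed by ER-associated degradation and autophagy, while the M form is secreted. Comparing the responses asks which genes react to the mutant protein beyond what the production of a normal one brings.

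The responses to the Z and the M protein differed for 2 of the 7083 probe sets (0.0282%), by limma's moderated test with Benjamini-Hochberg adjustment (a call is an adjusted p under 0.05). Alas2 fell in Z mice, with a response near 0 in M mice. Stbd1 had a positive response in Z mice and a negative one in M mice. With all 22626 probe sets in the fit, neither gene passed (adjusted p = 0.0624 for Alas2 and 0.23 for Stbd1), and 0 probe sets were called although 1172 had an unadjusted p under 0.05. Among the 7083, an unadjusted p under 0.05 was reached by 561 (7.92%), of which 291 had a higher response in Z (4.11%) and 270 a lower one (3.81%). The median difference was 0.01, and the middle 50% of values lay between -0.20 and 0.23. The signs of the Z and M responses were opposite in 51.3% of probe sets, and across probe sets, which are not replicates, the Z response had a Pearson r of 0.07 with the M response, which comes from other arrays.

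**Figure D1:**
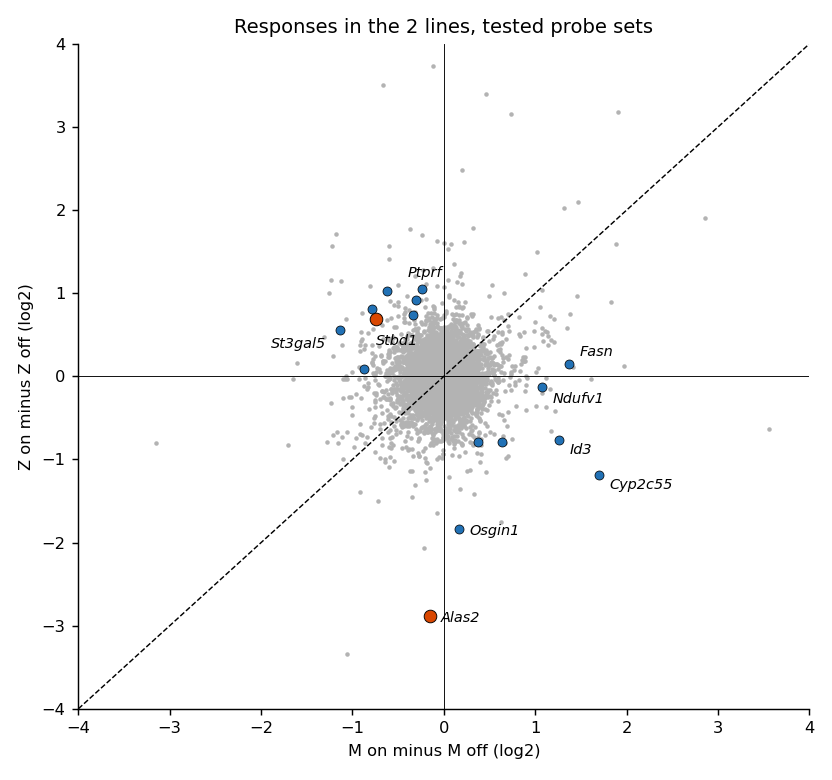
Response of each of the 7083 tested probe sets in M mice (x axis, M on minus M off, log2) and in Z mice (y axis, Z on minus Z off, log2). Grey points are all tested probe sets, blue points the genes of smallest p in each direction, orange points the 2 called genes, and the dashed line marks equal responses. Alas2 lies below the line with almost no M response (-0.16), Stbd1 lies above it, and the cloud as a whole shows little slope (r = 0.07).

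Alas2 encodes the erythroid form of 5-aminolevulinate synthase, which starts heme synthesis in red cell precursors; hepatocytes mostly use Alas1. Its signal was 306.6, 254.2 and 262.0 on the M off arrays and 230.8, 252.1 and 253.9 on the M on arrays. Z off arrays gave 1456.1, 1259.1 and 1118.8, and Z on arrays gave 210.7, 177.1 and 136.5. The Z off arrays stood above all others, and the Z on arrays lay below both M groups. Alas2 fell by 2.88 on the log2 scale in Z mice (adjusted p = 2.79e-06), against a response of -0.16 in M mice (adjusted p = 0.997), so that the responses differed by -2.73 (SE 0.24, adjusted p = 0.000359). The same value is the gap between the lines when on (Z minus M, -0.51) less their gap when off (2.22), so the off arrays carry the larger term. The call held in 22 of 23 other settings, and in each of the 12 fits that left out 1 array.

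In whole liver, fewer cells of a type and less RNA per cell cannot be told apart. Of 16 erythroid markers, 11 were measured and 2, Alas2 and Tfrc, reached a mean of 100. Tfrc, the transferrin receptor through which cells take up iron, differed by -0.81 (SE 0.33, adjusted p = 0.557), and its Z off and Z on arrays overlapped. The summed signal of the other 10 markers was 555.1 to 719.7 in Z off, 471.9 to 496.1 in Z on, 437.2 to 540.3 in M off and 495.7 to 503.8 in M on. Z off was thus the highest group in this sum too. Tfrc, the brightest of the 10, read 190.1, 310.5 and 209.6 in Z off. The other markers, all with mean signals under 100, had no common sign. Differences were negative for Car2 (-0.69), Hbb-b2 (-0.37), Hba-a1 (-1.10) and Hba-a2 (-0.40). They were -0.02 for Car1 and -0.006 for Slc4a1, and positive for Klf1 (0.19), Ermap (0.81) and Epb42 (0.79). The 3 defining markers Hba-a1, Hba-a2 and Epb42 had mean signals under 16. The part of erythroid cells in the Alas2 result was not tested. Of 11 tested genes of heme synthesis and breakdown, 3 had a positive and 8 a negative difference, with a median of -0.25 (-0.11 without Z on replicate 3 or Z off replicate 1, -0.16 without Z on replicate 1 or M off replicate 3). Alas2 was the 1 member called. Alas1, the liver's own form of the enzyme, had a difference of -0.28 with positive responses in both lines (1.60 in Z and 1.88 in M).

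Stbd1 encodes starch-binding domain protein 1, which binds glycogen and tethers it to membranes for its delivery to lysosomes. Its signal was 569.5, 653.2 and 643.0 in M off and 428.4, 372.2 and 322.8 in M on. In Z mice it was 300.0, 291.2 and 279.7 in the off state and 508.7, 471.1 and 424.6 in the on state. The groups of each line did not overlap, and they were ordered in opposite directions. The response was 0.69 in Z (adjusted p = 0.100) and -0.74 in M (adjusted p = 0.0892), so neither passed alone. The responses differed by 1.42 (SE 0.20, adjusted p = 0.0306). As for Alas2, the gap between the lines was wider when off (Z minus M, -1.10, adjusted p = 0.00207) than when on (0.33, adjusted p = 0.406). The off arrays thus carry the larger term here too. The Stbd1 call was less firm than that of Alas2 and held in 11 of 23 other settings. Leaving out 1 array ended it for M off replicate 2 (adjusted p = 0.173), M off replicate 3 (0.0815), M on replicate 2 (0.0789), M on replicate 3 (0.114), Z off replicate 2 (0.0788), Z off replicate 3 (0.142), Z on replicate 1 (0.0973) and Z on replicate 2 (0.0798). The size stayed between 1.32 and 1.53 in these 12 fits. Centring each array on its median also ended it (adjusted p = 0.0538), as did a test against a 1.5-fold limit (adjusted p = 1.00).

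The sequences before the transcription starts of the 2 called genes are shown because these genes carry the result; each line has the 250 bases upstream of the start, from RefSeq (mouse assembly GRCm38.p6). Alas2 lies at chrX:150547167-150547416 on the plus strand, and Stbd1 at chr5:92602801-92603050 on the plus strand. The letters AGATAA, a form of the site that erythroid GATA factors bind, were searched on both strands and are in capitals; they occur in 9.99% of 32851 promoters of the same length.
Alas2: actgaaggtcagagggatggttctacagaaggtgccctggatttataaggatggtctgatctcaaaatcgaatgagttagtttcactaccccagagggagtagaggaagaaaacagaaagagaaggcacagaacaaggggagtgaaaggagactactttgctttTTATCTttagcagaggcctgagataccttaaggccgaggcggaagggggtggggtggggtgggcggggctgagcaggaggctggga
Stbd1: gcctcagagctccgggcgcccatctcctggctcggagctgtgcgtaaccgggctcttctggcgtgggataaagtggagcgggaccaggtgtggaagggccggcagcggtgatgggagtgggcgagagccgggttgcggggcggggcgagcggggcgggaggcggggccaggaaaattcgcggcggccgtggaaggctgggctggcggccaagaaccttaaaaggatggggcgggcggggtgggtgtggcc
Alas2 holds 1 match, on the reverse strand, starting at position -86 (the base before the start is -1), and Stbd1 holds 0. A match describes the letters only.

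**Figure D2:**
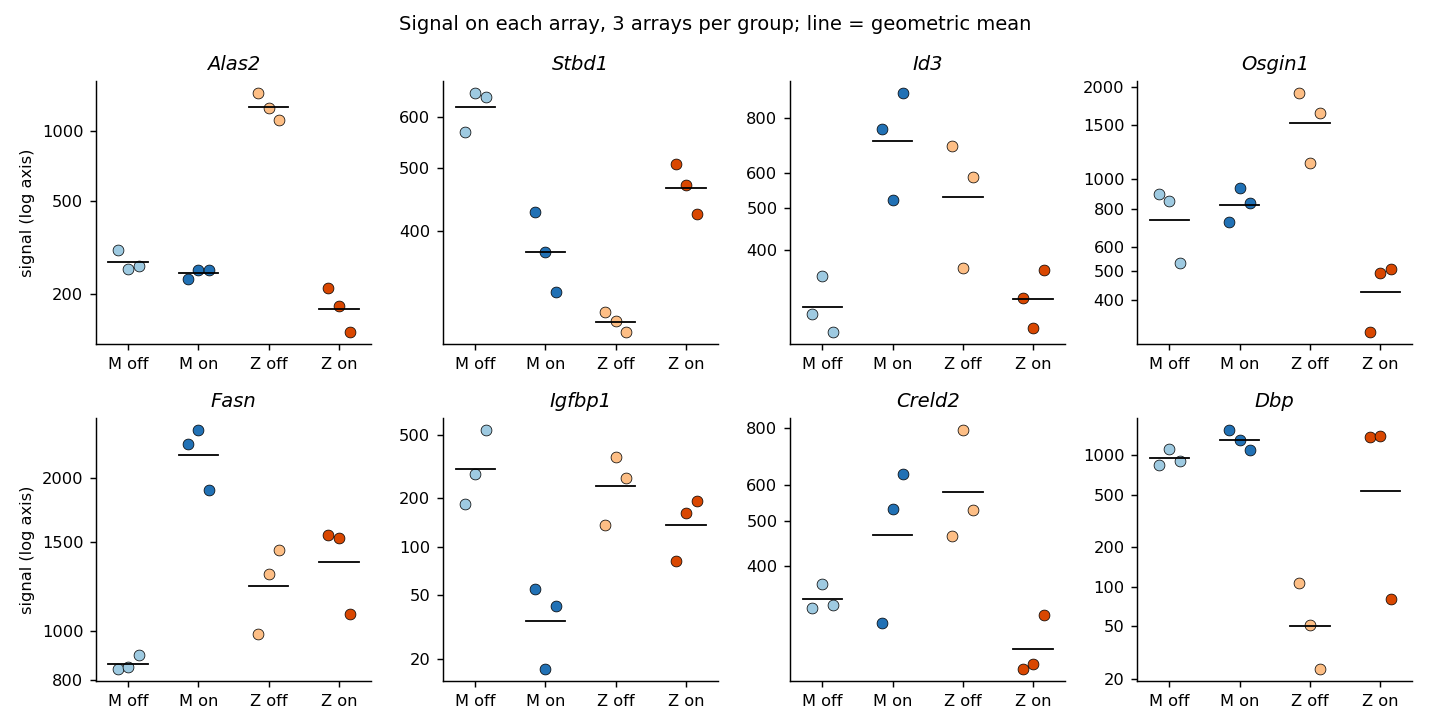
Signal on each of the 12 arrays (y axis, log scale; each panel has its own range) for 8 genes by line (M or Z) and state (off or on), with 1 point per mouse and a line at the geometric mean of 3. In Alas2 the 3 Z off arrays (1118.8 to 1456.1) stand above all others, in Stbd1 the off and on arrays are ordered in opposite directions in the 2 lines, and in Dbp 1 Z on array (80.1) lies with the Z off arrays.

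Behind the called genes stood genes with a smaller p than the rest that did not pass the adjustment; they are given as values. Of the 16 genes with the smallest p, 8 in each direction, 14 had responses of opposite sign in the 2 lines, beside 51.3% of all tested probe sets. Z off had the lowest group mean in 6 of the 8 positive genes and the highest in 5 of the 8 negative ones. The 16 genes were chosen by the p of the difference, so nothing is read from these counts. Adjusted p-values of those not called were 0.111 to 0.211 on the positive side and 0.140 to 0.218 on the negative side.

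Among the genes with a positive difference, Rdh9, St3gal5 and Gne encode enzymes. Rdh9, a retinol dehydrogenase, had means of 754 ± 143 in M off, 488 ± 64.7 in M on, 324 ± 40.1 in Z off and 669 ± 134 in Z on (SD, n = 3 each), a difference of 1.65 (SE 0.28, adjusted p = 0.111). Its off and on arrays did not overlap in either line. St3gal5, the sialyltransferase that makes ganglioside GM3, had a difference of 1.69 (SE 0.32, adjusted p = 0.149), mostly from the M line, where its mean was 440 ± 35.0 off and 202 ± 35.2 on. Another St3gal5 probe set gave 2.26 (adjusted p = 0.377). Gne, the enzyme that starts sialic acid synthesis, differed by 1.08 (SE 0.21, adjusted p = 0.149), with 711.0 to 853.4 in Z on above 445.0 to 503.6 in Z off and 467.3 to 638.8 in M on below 659.2 to 752.5 in M off.

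The other 4 not called on that side are regulators and a lipid enzyme. Lpin2, a phosphatidate phosphatase of triglyceride synthesis, differed by 1.60 (SE 0.33, adjusted p = 0.181), and a further probe set for it by 1.65. Ptprf, a receptor tyrosine phosphatase, read 390.7, 300.7 and 276.3 in Z off and 577.3, 767.9 and 648.7 in Z on, next to 587.3 to 931.2 over the 6 M arrays (difference 1.28, SE 0.25, adjusted p = 0.163). Its Z off arrays lay below all 9 others. This was the Ptprf probe set of smallest p: another gave 1.20 (adjusted p = 0.425), but the brightest gave 0.20 (adjusted p = 0.819), so they disagree. Foxo1, the transcription factor that insulin signalling keeps out of the nucleus, differed by 1.23 (SE 0.26, adjusted p = 0.211) with 112.7 to 176.0 in Z off and 232.4 to 310.7 in Z on. Zfp36l2, which promotes the decay of AU-rich messages, differed by 0.96 (SE 0.21, adjusted p = 0.211), and its 3 M off arrays (276.0 to 372.3) lay above all 9 others.

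On the negative side, Id3 and Osgin1 had the smallest p-values after Alas2. Osgin1, an oxidative stress gene under NRF2, read 1915.6, 1132.2 and 1649.6 in Z off and 314.1, 491.1 and 505.2 in Z on. Its M arrays, off and on, lay between 528.7 and 935.6, so that the Z off group stood above and the Z on group below all M arrays (difference -2.00, SE 0.36, adjusted p = 0.140). Id3, an inhibitor of helix-loop-helix factors and a target of BMP signalling, read 286.6, 349.7 and 260.6 in M off and 754.5, 521.5 and 911.5 in M on. In Z mice it read 690.3, 363.9 and 587.0 off and 311.1, 266.4 and 361.9 on, so the lines were ordered in opposite directions without overlap (difference -2.03, SE 0.36, adjusted p = 0.140). Without Z off replicate 2, Id3 was called (difference -2.29, adjusted p = 0.0437).

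Cyp2c55, a cytochrome P450, had the widest difference of the 16, -2.88 (SE 0.59, adjusted p = 0.181), but its Z off signals were 93.2, 287.7 and 85.1, of which the second stood far above the other 2. Ndufv1, a subunit of respiratory complex I, differed by -1.20 (SE 0.23, adjusted p = 0.149), and the low group was M off (496.9 to 597.5, against 1059.5 to 1539.6 over the 9 other arrays). Its other probe sets gave -1.01 and 0.16, so they disagree. Sppl2b, an intramembrane protease, differed by -1.44 (SE 0.28, adjusted p = 0.149) and Reep5, a protein that shapes ER tubules, by -1.16 (SE 0.25, adjusted p = 0.218), both near the signal limit of 100. Another Reep5 probe set gave -0.76 (adjusted p = 0.511).

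**Figure D3:**
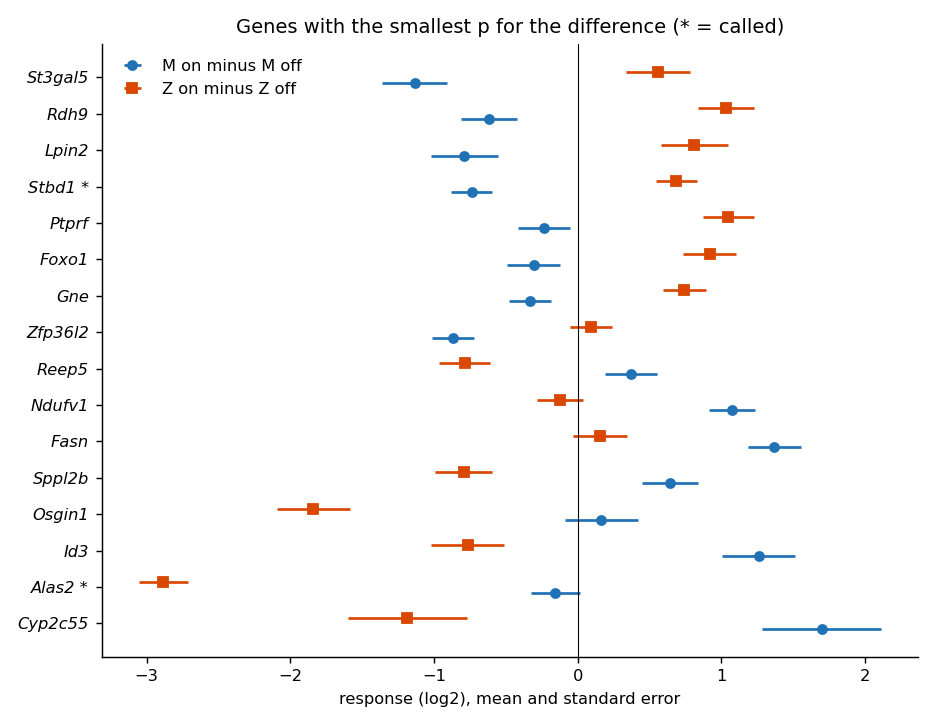
Response of the 16 genes of smallest p for the difference, 8 per direction, in M mice (blue circles, M on minus M off) and Z mice (orange squares, Z on minus Z off) on the log2 scale, with standard errors. In 14 of the 16 the symbols lie on opposite sides of 0, and stars mark Alas2 and Stbd1, the 2 called genes.

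A call in one line is not by itself a difference between lines. In Z mice 3 probe sets were called on against off (0.0424%), with Cxcl1 higher and Alas2 and Osgin1 lower. In M mice 7 were called (0.0988%), with Ndufv1, Fasn, Angptl8 and Gas6 higher and Zfp36l2, Igfbp1 and Serpina12 lower. These 2 lists shared 0 probe sets, and of the 10, 1 (Alas2) passed the test of the difference. Cxcl1, a chemokine that attracts neutrophils, read 51.0, 61.4 and 62.8 in Z off and 378.6, 389.4 and 988.5 in Z on. In M mice it read 80.4, 86.1 and 226.6 off and 435.4, 598.5 and 314.3 on, above the off arrays as well, and the difference was 1.28 (SE 0.59, adjusted p = 0.631). It was 0.79 without M off replicate 3 and 0.82 without Z on replicate 3. Gas6, a ligand of the TAM receptors, chosen once its values were known, had responses of 0.66 in Z and 1.00 in M and a difference of -0.34 (adjusted p = 0.723). For these 2 genes, the responses had the same sign in both lines. The same held for Igfbp1, Serpina12, Fasn, Angptl8 and Alas2, though Fasn, Angptl8 and Alas2 were close to 0 in 1 line. Signs were opposite for Ndufv1, Osgin1 and Zfp36l2.

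Most genes of fatty acid synthesis had a negative difference, that is, a higher response in M mice. Of 18 genes 14 were tested, with 3 positive and 11 negative differences, and the median was -0.55, beside 0.00387 over all 4689 genes, of which 50.6% were positive. It lay between -0.72 and -0.36 over 19 alternatives. The medians of 23 of the 25 lists moved by over 1.5 times or turned their sign when 1 array was left out. Those of fatty acid and cholesterol synthesis did not, but came close to 1.5 times over the 19 alternatives. They are therefore not clearly set apart from the rest, and ranges are given beside the medians that follow. No gene of fatty acid synthesis was called. An unadjusted p under 0.05 was reached by 0 on the positive and 5 on the negative side (3.88% and 4.12% of all genes). Fasn, the fatty acid synthase, read 841.6, 849.5 and 896.8 in M off and 2333.8, 2492.9 and 1895.9 in M on. In Z mice it read 986.3, 1296.8 and 1441.7 off and 1545.7, 1525.4 and 1078.6 on. The M groups were far apart and the Z groups overlapped (difference -1.21, SE 0.26, adjusted p = 0.218). The same layout, with M groups apart and Z groups overlapping, was found for Pklr (liver pyruvate kinase, -1.13, adjusted p = 0.331), Acss2 (acetyl-CoA synthetase, -0.93, adjusted p = 0.557), Elovl6 (fatty acid elongase, -0.79, adjusted p = 0.594) and Acly (ATP citrate lyase, -0.69, adjusted p = 0.557). Acss2 rested in part on M on replicate 1 (1790.1, beside 776.9 and 782.2): without it the difference was -0.53, and another Acss2 probe set gave -0.44. Other probe sets of Pklr (-1.51), Elovl6 (-1.27) and Acly (-0.88 and -0.69) had the same sign. Angptl8, a feeding-induced inhibitor of lipoprotein lipase, chosen once its values were known, had responses of 1.97 in M and 0.12 in Z (difference -1.85, adjusted p = 0.282).

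Most genes of cholesterol synthesis also had a negative difference. Of 19 tested genes 3 were positive and 16 negative, with a median of -0.48 (-0.65 to -0.32), and none was called. Pmvk, phosphomevalonate kinase, read 86.3, 84.9 and 109.6 in M off and 212.4, 142.7 and 153.8 in M on, against 185.2 to 237.3 in Z off and 201.6 to 311.5 in Z on (difference -0.69, SE 0.29, adjusted p = 0.566). Its M off arrays lay below all 9 others. The list's median response was 0.57 in M and 0.41 in Z, positive in both lines. Its median gap between the lines (Z minus M) was 0.52 when off and 0.14 when on. Lss, lanosterol synthase, differed by -0.66 (-0.41 without Z on replicate 2) and Cyp51, lanosterol demethylase, by -0.48, where the SE was 0.28. For triglyceride storage, 6 of 13 tested genes were positive and 7 negative. The lipid droplet coat protein Plin2 read 3211.5 to 4225.4 in Z off and 2005.5 to 2851.4 in Z on, while M off was 1857.4 to 2107.4 and M on 2349.0 to 2526.9 (difference -0.89, SE 0.22, adjusted p = 0.282). The groups of each line were apart, in opposite directions. G0s2, which inhibits the lipase of droplets, differed by -1.83 (SE 0.52, adjusted p = 0.361).

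Genes that respond to fasting and insulin were evenly divided by sign, and the values of the smallest p were positive. Of 10 tested, 5 were positive and 5 negative, the median was 0.14 (-0.02 without Z off replicate 2 to 0.31 without Z on replicate 2), and 4 reached an unadjusted p under 0.05 on the positive side and 0 on the negative; none was called. Foxo1, above, was the member with the smallest p. Igfbp1, a secreted binding protein that FOXO1 induces and insulin represses, read 185.7, 282.0 and 535.8 in M off and 54.3, 17.3 and 42.8 in M on, while its Z groups overlapped (81.1 to 193.6 on, 137.4 to 361.7 off). The difference was 2.35 (SE 0.71, adjusted p = 0.423). Foxo3 differed by 1.08 (SE 0.47; 0.64 without Z on replicate 1, 0.62 by another probe set) and Klf15, a fasting-induced transcription factor, by 0.79 (SE 0.31), with adjusted p-values of 0.589 and 0.544. Of 11 genes of gluconeogenesis and glycogen, 9 were positive, with a median of 0.09 (0.06 without Z on replicate 3 to 0.33 without M on replicate 1). Pck1, which makes phosphoenolpyruvate from oxaloacetate, read 3203.1, 1241.7 and 949.7 in Z off and 5449.1, 4464.6 and 4446.6 in Z on (difference 1.40, SE 0.46, adjusted p = 0.465). The first of these Z off arrays lay close to the M off arrays (3196.2 to 3676.6), and without it Pck1 was called (1.92, adjusted p = 0.0107). Of 15 genes of fatty acid oxidation, 9 were positive and 6 negative, and none reached an unadjusted p under 0.05.

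Some genes of the liver clock had wide positive values, and in several of them 1 Z on array stood apart from the other 2. All 5 tested clock genes were positive, with a median of 0.32 that was 0.80 without Z off replicate 1, 0.68 without Z on replicate 1 and 0.50 without M on replicate 1. Rora (0.29, SE 0.20), Csnk1d (0.27, SE 0.31) and Nr1d1 (0.32, SE 0.58) were small beside their errors. Other tested Csnk1d probe sets gave 0.39, 0.29 and -0.29, so they disagree. Of 10 output genes 7 were positive, with a median of 0.24 that was 0.48 without Z on replicate 3. Of the 2 lists, 1 and 3 members reached an unadjusted p under 0.05, on the positive side, and none was called. Dbp, an output factor of the clock that binds D-boxes, read 107.1, 51.1 and 23.8 in Z off and 1365.0, 1385.3 and 80.1 in Z on, and 838.7 to 1555.9 over the 6 M arrays. Z on replicate 3 lay with the Z off arrays, and the other 2 lay with the M arrays. The difference was 2.93 (SE 1.21, adjusted p = 0.558). Usp2, a deubiquitinase with a strong daily rhythm, had the same layout, with 390.2, 367.2 and 51.5 in Z on and 14.1, 64.6 and 46.2 in Z off (difference 2.29, SE 0.98, adjusted p = 0.572; 3.85 by another probe set). Nr1d2, the repressor REV-ERB-beta, read 300.4, 269.6 and 148.9 in Z off and 918.7, 767.7 and 464.1 in Z on, without overlap (difference 1.51, SE 0.38, adjusted p = 0.282). Without Z on replicate 3, 11 probe sets were called instead of 2, with 8 higher and 3 lower. The higher ones were 2 probe sets of Dbp (4.30 and 3.63), Bcl6 (2.85), Upp2 (2.50), Lpin2 (1.88), St3gal5 (1.88), Rdh9 (1.83) and Stbd1 (1.49), and the lower ones Alas2 (-2.56), Chka (-1.83) and Lgalsl (-1.61). Bcl6 is a transcriptional repressor of the liver, Upp2 a uridine phosphorylase and Chka a choline kinase. Upp2, Chka and Lgalsl stand outside the rule for named genes and were chosen once their values were known. The sources used here do not give the hour at which the mice were killed, and its part in these values was not tested.

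The promoter of the clock gene Per3 is shown because it holds the D-box that Dbp and its relatives bind, in the form TTATGTAA (both strands searched, in capitals), which occurs in 0.819% of the 32851 promoters; it lies at chr4:151044666-151044915 on the minus strand and is printed in the direction of the gene, from RefSeq (GRCm38.p6).
Per3: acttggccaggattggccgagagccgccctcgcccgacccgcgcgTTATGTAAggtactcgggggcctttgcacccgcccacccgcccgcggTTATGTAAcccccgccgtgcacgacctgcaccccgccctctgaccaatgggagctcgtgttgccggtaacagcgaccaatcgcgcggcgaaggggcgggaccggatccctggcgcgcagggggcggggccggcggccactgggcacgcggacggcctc
The 2 matches start at positions -205 and -158. Of 4 tested clock genes with a promoter in the table, Per3 was the 1 that held this form, and 0 of 9 output genes held it. Per3 read 45.9, 40.9 and 12.5 in Z off and 143.9, 172.7 and 38.5 in Z on, and 113.8 to 229.4 over the M arrays. Here too Z on replicate 3 lay with the Z off arrays (difference 1.46, SE 0.77, adjusted p = 0.675; 0.86 without Z off replicate 3). The match says nothing of which factor was bound.

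Most ER chaperones and oxidoreductases, which fold secreted proteins, had a negative difference. Of 23 tested 6 were positive and 17 negative, with a median of -0.14 (-0.27 without Z on replicate 3 to -0.08 without M off replicate 3), and none was called; 1 positive and 2 negative values reached an unadjusted p under 0.05. Hspa5, the chaperone BiP, read 4617.1, 5845.9 and 5237.3 in Z off and 3763.9, 4315.6 and 5072.8 in Z on, with 3708.8 to 5090.3 over the M arrays. The groups overlapped, and the difference was -0.22 (SE 0.23, 95% interval -0.72 to 0.28, adjusted p = 0.849), with -0.06 by another probe set. Creld2, an ER protein that is induced when misfolded proteins gather, read 465.4, 793.7 and 530.1 in Z off and 237.4, 244.0 and 311.0 in Z on. In M mice it read 323.2 to 363.7 off and 299.2 to 635.6 on. The Z groups were apart, with Z off the higher, and the difference was -1.61 (SE 0.37, adjusted p = 0.267). Manf, a secreted ER stress protein, had the same order of Z groups (1635.9 to 2636.4 off, 1028.2 to 1634.0 on) and a difference of -0.71 (SE 0.30, adjusted p = 0.566). The lectin chaperone Canx differed by 0.52 (SE 0.20, adjusted p = 0.511), with its M on arrays (973.1 to 1188.4) below M off (1301.9 to 1426.9).

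The promoter of Creld2 is shown because its difference was the most negative of these 23 and it holds an ER stress element, CCAAT and CCACG with 9 bases between them, the site through which ATF6 and XBP1 act; it lies at chr15:88819396-88819645 on the plus strand (RefSeq, GRCm38.p6), with the fixed letters of the element in capitals.
Creld2: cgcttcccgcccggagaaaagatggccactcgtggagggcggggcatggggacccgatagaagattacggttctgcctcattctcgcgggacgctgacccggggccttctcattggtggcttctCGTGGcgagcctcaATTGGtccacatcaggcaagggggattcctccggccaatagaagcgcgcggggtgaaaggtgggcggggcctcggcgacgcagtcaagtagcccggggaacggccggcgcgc
The match is on the reverse strand and starts at position -126. Both strands were searched, and 37 of the 32851 promoters (0.113%) held the element. Of the 20 tested ER chaperone genes with a promoter in the table, 8 held it: Calr, Canx, Creld2, Dnajc3, Ero1b, Hsp90b1, Hspa5 and Pdia6. Their differences were -1.61 for Creld2, -0.37 for Calr, -0.22 for Hspa5, -0.21 for Pdia6 and -0.10 for Hsp90b1. Those of Ero1b (0.06), Dnajc3 (0.17) and Canx (0.52) were positive. The 8 carriers of the element thus had no common sign.

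No gene of the other arms of the response to misfolded protein was called. Xbp1, the transcription factor spliced by IRE1, had group means between 1855 ± 196 and 2061 ± 181 (SD, n = 3) and a difference of -0.03 (SE 0.23, 95% interval -0.53 to 0.47). Its other 3 tested probe sets gave -0.03, 0.34 and 0.38. The array does not separate its spliced form. Of 6 tested genes of the unfolded protein response 1 was positive and 5 were negative. Of 18 of ER-associated degradation, 9 were positive and 9 negative (median -0.02, range -0.17 to 0.10). Syvn1, the ubiquitin ligase HRD1, read 407.0 to 461.4 in Z off and 216.9 to 279.8 in Z on, apart, with 219.4 to 327.1 over the M arrays (difference -0.67, SE 0.22, adjusted p = 0.457). Edem2, which marks misfolded glycoproteins for removal, had the same order, 400.8 to 446.0 off and 317.3 to 351.4 on (difference -0.64, SE 0.23, adjusted p = 0.476). Herpud1, a membrane partner of the ligase, had a positive difference of 0.87 (SE 0.37, adjusted p = 0.566), and another probe set for it gave 0.38. Of 6 genes of the integrated stress response, 2 were positive and 4 negative (median -0.31, -0.19 without Z on replicate 3), with Atf4 at -0.75 (SE 0.26, adjusted p = 0.471; -0.41 by another probe set) and Atf5 at -0.97 (SE 0.38, adjusted p = 0.544).

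For the removal routes of Z protein, 9 of 20 autophagy and lysosome genes were positive and 11 negative (median -0.06, range -0.09 to 0.09). Map1lc3b, whose protein coats autophagosomes, differed by 0.85 (SE 0.29, adjusted p = 0.471), and its other probe sets by 0.90 and 0.39. Its M on arrays (467.7 to 702.8) lay below M off (803.0 to 976.4), and its Z groups overlapped. Atg7, an enzyme that activates such proteins, had the opposite sign, -0.64 (SE 0.25, adjusted p = 0.529). The autophagy receptor Sqstm1 read 2102.2, 2085.7 and 1839.7 in Z off and 1412.0, 1625.5 and 1785.7 in Z on, apart, and 1255.4 to 1519.1 over the M arrays, a difference of -0.36 (SE 0.20, adjusted p = 0.687). Of 31 proteasome genes 17 were positive and 14 negative, with a median of 0.02 (range -0.02 to 0.08), and of 12 cytosolic heat shock genes 7 and 5.

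NF-kappaB is known to be activated in livers that accumulate the Z protein. Of 7 tested genes of its pathway and targets, 4 were positive and 3 negative, and 2 of each side reached an unadjusted p under 0.05; none was called. Nfkbia, the inhibitor that NF-kappaB itself induces, read 1483.3, 1359.1 and 1439.6 in M off and 780.5, 960.6 and 1081.0 in M on, apart. In Z mice it read 902.0 to 1134.6 off and 1094.3 to 1318.2 on, which overlap (difference 0.88, SE 0.22, adjusted p = 0.282). Its other 2 tested probe sets gave 0.27 and 0.57. Birc3, an apoptosis inhibitor and target gene, differed by 1.18 (SE 0.33, adjusted p = 0.333), with 84.1 to 135.9 in Z off below 136.3 to 198.6 in Z on. The subunit Rela and the kinase regulator Ikbkg differed by -0.64 and -0.68 (adjusted p = 0.457 and 0.465), each with the groups of both lines apart in opposite directions. Another tested Ikbkg probe set gave -0.01, so its probe sets disagree.

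Acute phase genes, which the liver switches on in inflammation, were positive in 17 of 22, with a median of 0.25 that was 0.04 without Z on replicate 3 and 0.51 without Z on replicate 2. There were 5 at an unadjusted p under 0.05 on the positive and 0 on the negative side, and none was called. Crp differed by 0.54 (SE 0.23) and Saa4 by 0.61 (SE 0.26), with adjusted p-values of 0.566 and 0.591. Apcs, serum amyloid P, read 1319.0, 1818.5 and 1672.5 in Z off and 3765.1, 2066.2 and 5813.8 in Z on, apart, while its M groups overlapped (difference 1.12, SE 0.51, adjusted p = 0.623). Socs3, the feedback inhibitor of IL-6 signalling, varied widely within groups, with 33.5, 154.6 and 596.0 in M off and 322.9, 44.0 and 278.3 in Z on (difference 2.79, SE 1.26, adjusted p = 0.621). Without M off replicate 3 its difference was 1.78. Neutrophil markers stayed dim. Of 12 such markers 10 were measured and 0 reached a mean of 100; their summed signal was 149.4 to 395.1 in M off, 169 to 300.0 in M on, 184.8 to 284.8 in Z off and 224.3 to 289.4 in Z on, and S100a8, Cxcr2 and Camp had mean signals under 16. Their part in the Cxcl1 and acute phase values was not tested.

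**Figure D4:**
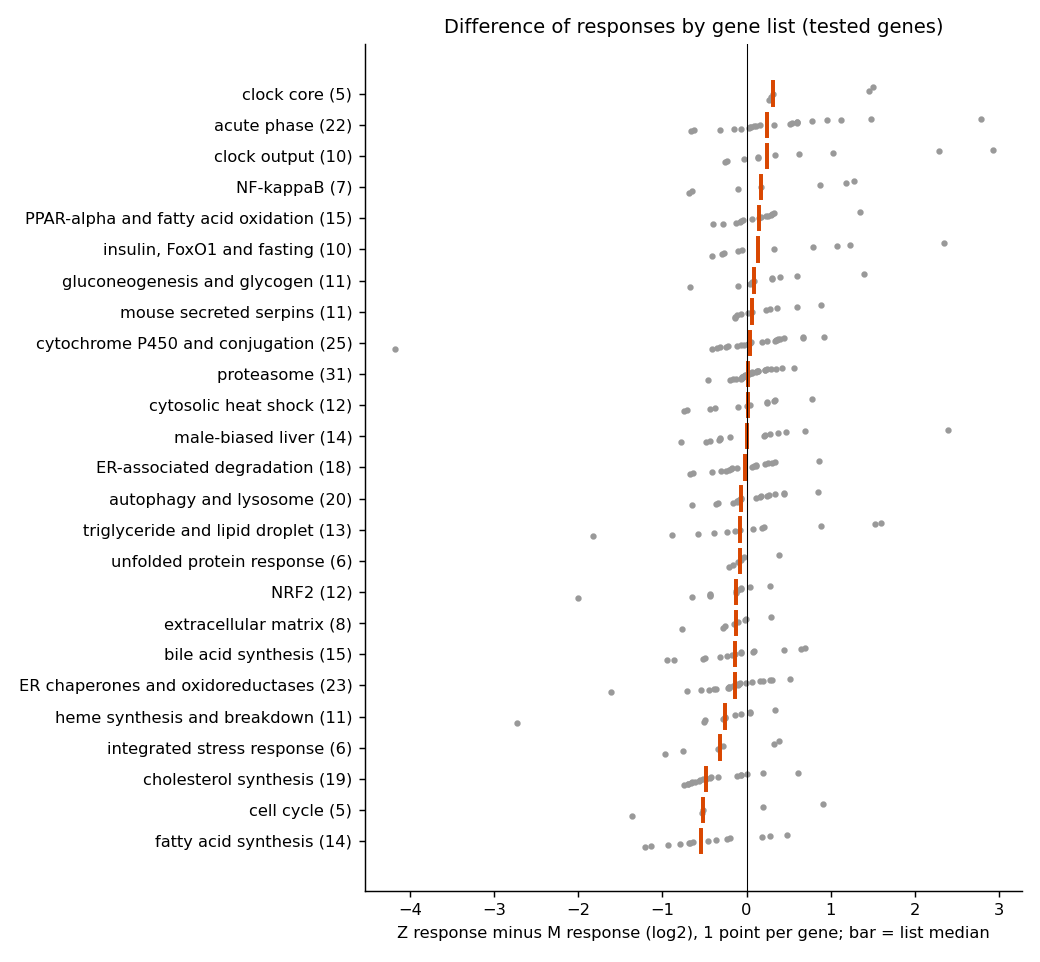
Difference of responses (x axis, log2) of each tested gene (grey points) in the gene lists with 5 or more tested genes (number in brackets), with an orange bar at the list median. Fatty acid synthesis (-0.55) and cholesterol synthesis (-0.48) have medians on the negative side and the clock core (0.32) and acute phase (0.25) on the positive, with most lists spread on both sides of 0. The clock and acute phase medians move by over 1.5 times without 1 array.

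Control signals of the arrays were not even over the groups. The 18S control read 568.2 to 709.8 in M off, 226.6 to 767.5 in M on, 93.9 to 373 in Z off and 914.2 to 1491.7 in Z on. The ratio of 3' to 5' actin signal, a measure of RNA integrity, was 2.18 to 2.53 in Z off and 2.44 to 5.16 in Z on, against 2.72 to 4.38 over the M arrays. Z off had the lowest values of both, overlapping with M on for 18S and with Z on for actin. The part of RNA quality in these values was not tested.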

How the data were processed

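The values used were the authors' deposited signal intensities, 1 linear value per probe set and array. RMA is named in the submitters' processing notes. The deposited intensities are linear and were therefore converted to log2 here. They were not equal in distribution between arrays: medians over all probe sets other than controls ran from 38.7 to 47. In the whole series 1 value lay at or below 0. Whether these values are the output of RMA could not be checked. The sources used here do not give software, genome build or detection calls. Uneven background or scaling could move dim signals most. All 12 arrays entered 1 linear model with a term for each group, in limma 3.58.1 (R 4.3.3; lmFit, eBayes, two-sided), with Benjamini-Hochberg adjustment over the 7083 probe sets. Lists used 1 probe set per gene, the brightest. Members, lists and tests were chosen with earlier results of these data known, so no list is independent support. Named genes were the called ones, the 8 of smallest p per direction, up to 5 members of each list by smallest p, and a fixed few (Alas2, Dbp, Fasn, Hspa5, Xbp1, Sqstm1, Nfkbia, Alb, mouse Serpina1 genes). Alas1 was named outside it, as were Calr, Dnajc3, Ero1b, Hsp90b1 and Pdia6 as carriers of the ER stress element. Simulated arrays with 200 of 7083 probe sets changed, in Z on only, gave 46% recovery of 100 changes of 1 (log2). They gave 90% recovery of 100 changes of 2, and 4 false calls. Noise was drawn independently for each probe set and array. Shifts that the probe sets of an array share were not simulated, so these rates may not hold for the real arrays. The adjustment also accepts larger p-values where 200 probe sets are changed than where few pass, and 2 passed in the real data. The rates may therefore be too high. In the real data Id3 (-2.03), Osgin1 (-2.00) and Cyp2c55 (-2.88) were not called. Alternatives were other scaling, offsets, filters, variance models, array weights, a replicate block, 1 probe set per gene, a fold limit and leaving out each array.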

Additional observations from a re-analysis of the deposited data

Results flagged for a closer look

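The difference of the Z and M responses passed the test itself for Alas2 (-2.73 on the log2 scale, lower in Z) and Stbd1 (1.42, higher in Z). Outside the main measurement, the 18S control signal of the lowest Z on array (914.2) lay above that of the highest Z off array (373), and above all 6 M arrays (226.6 to 767.5).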

How the results depend on the processing

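Of 1412 recomputed differences of 62 named genes under 23 alternatives, 1381 kept their sign and their side of the threshold, 13 lost a call, 9 gained one and 9 changed sign. Calls were 0 in all and 0 in each direction without the filter on dim probe sets, 1 in all with 0 higher under median centring and again under the 1.5-fold limit, and 2 higher with an intensity trend and robust variances, where Rdh9 was added. Leaving out 1 array gave 1 to 11 calls, 0 to 8 higher and 1 to 3 lower. Without Z on replicate 3 there were 11, without Z off replicate 1 there were 4 (adding Pck1 and Pctp), without M off replicate 1 there were 3 (adding Psen2), and without Z off replicate 2 there were 2 (Alas2 and Id3). Pctp and Psen2 were chosen once their values were known. Alas2 and Stbd1 kept their sign in all 23. Signs turned for 3 genes close to 0: Xbp1 (-0.03; -0.16 to 0.0796 without 1 array), Alb (0.11; -0.052 to 0.36 without 1 array) and Serpina1b (-0.11; 0.049 with array weights, -0.28 to 0.12 without 1 array). Leaving out 1 array moved the difference by over 1.5 times or turned its sign for 10 of 62 named genes (those 3, Acss2, Cxcl1, Foxo3, Hspa5, Lss, Per3 and Socs3) and the median of 23 of 25 lists. A replicate block also gave 2 calls, Alas2 (adjusted p = 0.000833) and St3gal5 (0.043) in place of Stbd1 (0.0503). The replicate numbers did not pair the arrays: same-numbered arrays had residual correlations of -0.158 to 0.206 over 18 pairs, with a mean of 0.04. The causes of these shifts were not tested. With 3 arrays per group and a median SE of 0.26, changes of 1 on the log2 scale were recovered in 46% of simulated cases. That rate came with 200 changed probe sets, where the adjustment is milder than in the real data, and may be too high. Genes not called may still differ.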

Other observations

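Outside the groups described above, the male-biased gene Bcl6 had a difference of 2.39 (SE 0.53, adjusted p = 0.233), with 185.5 to 275.5 in M off, 72.6 to 106.9 in M on, 71.0 to 161.8 in Z off and 113.3 to 315.9 in Z on, and of 14 tested male-biased liver genes 7 were positive and 7 negative. Cyp3a13, a cytochrome P450, read 183.7 to 234.0 in Z off, 262.9 to 415.8 in Z on and 604.6 to 743.5 over the M arrays (difference 0.92, SE 0.26, adjusted p = 0.333), and 16 of 25 genes of cytochrome P450 and conjugation were positive. Ccnd1, cyclin D1, differed by -1.37 (SE 0.43, adjusted p = 0.425), and its other tested probe set by -0.45. Of 12 tested NRF2 genes 10 were negative, with a median of -0.12 (-0.22 without M on replicate 2, -0.19 without Z on replicate 2), Osgin1 among them. Stellate cell markers (11 of 12 measured) summed to 2626.4 to 2914.7 in M off, 1725.2 to 2320.8 in M on, 2572 to 2925.2 in Z off and 1621.1 to 2155.1 in Z on. They were thus lower in the on groups of both lines, and the difference of responses of the summed signal was -0.04.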
